A study of Mus musculus with 23 samples.

Results

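The 8 genes described here encode transcription factors of the endodermal and ductal lineage, namely Hnf4a, Foxa2, Foxa3, Gata6, Sox9, Pdx1, Klf5 and Elf3. They were chosen by gene symbol from the count table of a bulk RNA sequencing experiment on mouse pancreatic ductal adenocarcinoma (PDAC) cells and organoids. The table held 27207 genes. All 8 passed the filter on low counts, which left 11144 genes for testing.

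The study grew tumor cells as flat cultures or as organoids in floating collagen type I gels or in Matrigel, a basement membrane preparation. KC cells came from a mouse that carried the Cre driver Ptf1a Cre/+. They were sequenced as 2D cultures (n = 6), as organoids in collagen at day 7 (n = 3) and at day 13 (n = 5 in batch 1 and n = 3 in batch 2), and as organoids in Matrigel at day 13 (n = 3). KPC cells, with the Cre driver Pdx1 Cre/+, were sequenced as organoids in collagen at day 13 in batch 2 (n = 3). The 2D cells, the day 7 organoids and the Matrigel organoids were all of batch 1. The study describes tumor cells of a KC mouse and of a KPC mouse, so that genotype, line and Cre driver cannot be told apart. Sample titles of batch 1 carry a line number and those of batch 2 do not. Pdx1, a member of the set, is also the gene that gives the Cre driver of the KPC line its name. Organoids were freed from their matrix with collagenase before lysis and 2D cells were lysed directly, so that culture format and digestion cannot be told apart either. The labels call the libraries of a group biological replicates and the study describes individual experiments, and p-values therefore measure the spread between these libraries and not between animals.

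Transcription factors of this set act in layers. Foxa2 and Foxa3 belong to the FOXA family, which can bind closed chromatin and prepares endodermal enhancers, and Gata6 and Hnf4a act with them in the development and the upkeep of liver, gut and pancreas. Pdx1 marks the pancreatic bud and later the beta cell, Sox9 keeps pancreatic progenitors and ducts, and Klf5 and Elf3 drive genes of simple epithelia. In PDAC, the expression of such factors is widely used to describe how far tumor cells keep an epithelial, classical identity.

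Upstream sequences were available in the RefSeq table of build GRCm38.p6 for 5 of the 8 members, with 8 start sites among them (Hnf4a with 2, Foxa2 with 3, and Foxa3, Pdx1 and Elf3 with 1 each). The libraries covered the 3' ends of transcripts, so that the starts of Hnf4a or Foxa2 were counted together. The windows of Foxa3 and Elf3, the factors with the largest changes from day 7 to day 13, and those of the Hnf4a starts are given. The letters searched, on both strands of the 250 bases before each start, were TGTTTAC for FOXA (present in 3.17% of the 32851 windows of the table), CAAAGTCCA for HNF4 (0.384%), AGATAA for GATA (9.99%), ACAATGG for SOX (3.02%), CTAATTA for PDX (1.83%), GGGTGTGG for KLF (3.2%) and GGAAGT for ETS factors such as Elf3 (19.7%). None of these motifs contains another. Bases that belong to annotated exons of the gene were left out, the sequences run 5′ to 3′ along the gene, and capitals mark the matches.
Hnf4a, upstream start (chr2:163506607-163506807, + strand): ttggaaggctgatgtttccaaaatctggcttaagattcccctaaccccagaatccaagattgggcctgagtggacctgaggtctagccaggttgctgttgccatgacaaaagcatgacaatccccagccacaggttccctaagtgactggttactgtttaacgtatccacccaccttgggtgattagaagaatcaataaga
Hnf4a, downstream start (chr2:163546943-163547154, + strand): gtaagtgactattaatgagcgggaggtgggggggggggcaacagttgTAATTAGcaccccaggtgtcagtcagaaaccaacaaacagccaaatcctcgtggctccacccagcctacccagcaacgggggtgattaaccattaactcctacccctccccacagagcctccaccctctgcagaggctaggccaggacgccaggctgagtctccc
Foxa3 (chr7:19023540-19023789, - strand): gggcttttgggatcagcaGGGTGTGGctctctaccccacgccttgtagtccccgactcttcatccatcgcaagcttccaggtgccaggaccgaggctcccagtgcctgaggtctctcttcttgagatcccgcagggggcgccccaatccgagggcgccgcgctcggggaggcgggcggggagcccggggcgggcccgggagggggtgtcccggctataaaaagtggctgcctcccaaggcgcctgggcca
Elf3 (chr1:135258569-135258722, - strand): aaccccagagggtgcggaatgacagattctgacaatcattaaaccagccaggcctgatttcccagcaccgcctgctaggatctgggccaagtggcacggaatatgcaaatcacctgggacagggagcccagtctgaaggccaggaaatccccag
The window of the downstream Hnf4a start held 1 PDX match on the reverse strand, 165 bases before the start. At the upstream Hnf4a start a GATA match began 52 bases before the start and ran from the last bases printed into an annotated exon, and it is not set in capitals. Foxa3 held 1 KLF match, 232 bases before its start, and Elf3 and Pdx1 held none of the 7 motifs. Of the 3 windows of Foxa2, the first held none, the second a pair of ETS matches and the third 1 GATA match. A match describes letters only and does not show that a factor bound there.

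Libraries were compared as unique molecular identifier (UMI) counts scaled to a common library size with the TMM factors of edgeR (CPM). Total counts ran from 1221451 to 2471058 UMIs per library with a median of 1845921, and 3 UMIs, the most that a count of 0 allows, corresponded to between 1.16 and 3.22 CPM. The 2D replicates 1 to 3 stood apart from the other 20 libraries. Their TMM factors were 0.738 to 0.772 against 0.944 to 1.13, and genes with less than 1000 bases of exon took 10.8% to 11.4% of their counts against 7.47% to 7.62% in 2D replicates 4 to 6. That share was also 10.3% to 10.6% in KC organoids of batch 2, against 8.57% to 9.79% in KC organoids of batch 1 at day 13 in collagen and 9.20% to 9.90% in KPC organoids. Across genes, the log2 CPM of 2D replicates 1 to 3 correlated with those of 2D replicates 4 to 6 at r = 0.917 to 0.934. Hnf4a, Foxa2, Sox9, Klf5 and Elf3 were lower in replicates 1 to 3 than in replicates 4 to 6 without overlap. Foxa3 was higher without overlap (8.73 to 16.8 against 3.53 to 8.64 CPM), and Pdx1 and Gata6 overlapped. The share of all tested genes that separated these libraries in the same way was not computed. Results of the factors that use 2D cells are therefore given with and without these libraries, those of other lists as counts and medians with and without them, and the part of the short transcripts in them was not tested. Scaling by library size alone moved the median log2 fold change of all tested genes by 0.15 from 2D cells to day 7, 0.20 from 2D cells to day 13, 0.12 between KPC and KC and -0.14 between the batches. It also moved the share of called genes that were higher, which went from 48.4% to 62.5% for 2D cells to day 7, from 46.9% to 68.1% for 2D cells to day 13, from 51.3% to 68.6% for Matrigel, from 48.0% to 67.9% for KPC and from 51.6% to 35.2% for batch 2.

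Across the culture stages, as many factors rose as fell from 2D cells to day 7, the phase in which organoids extend. Most rose from there to day 13, the phase of lumen formation. From 2D cells to day 7, 3 of the 8 factors rose (Hnf4a, Foxa2 and Gata6) and 3 fell (Foxa3, Sox9 and Elf3), where 24.8% of all tested genes were called higher and 26.4% lower at an adjusted p under 0.1. Without 2D replicates 1 to 3, only Gata6 was called higher and 4 factors lower, Klf5 joining the others, against 22.4% and 23.9% of all genes in that fit. From day 7 to day 13, 6 of the 8 rose and none fell, against 27.1% of all genes higher and 28.1% lower. From 2D cells to day 13, 7 of 8 rose and none fell, against 23.3% and 26.3%, and Sox9 was the exception. With 2D replicates 4 to 6 alone, the same 7 were called higher and Sox9 lower, against 20.3% and 18.9% of all genes. Cd68, an immune marker, measured 4.11 to 18.3 CPM in 2D cells, 3.41 to 5.39 CPM at day 7 and 11.6 to 21.5 CPM at day 13. It fell to day 7 (-0.97 ± 0.37, adjusted p = 0.0375) and rose from there to day 13 (1.80 ± 0.34, adjusted p = 0.0001). With 2D replicates 4 to 6 alone the fall was not called (-0.795, adjusted p = 0.101). Ptprc, which marks white blood cells, had group means of 0, 0.16 and 0.28 CPM in the same 3 groups. The part of Cd68 in these steps was not tested. These comparisons share libraries with one another. Differences are given as log2 fold changes, the first named minus the second group or the later minus the earlier stage, with the standard error of the edgeR fit.

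The matrix, the lines and the batches were compared at day 13. In Matrigel, Foxa2 alone was called, lower than in collagen, where 6.62% of all tested genes were higher and 6.29% lower. Between KPC and KC organoids only Gata6 was called, higher in KPC, against 9.58% of genes higher and 10.4% lower. The spread of each gene in these tests was estimated over all groups, the 2D libraries included. A fit of the compared groups alone called more factors for Matrigel and for KPC, as given below. Between the batches of KC collagen organoids of day 13, 4 factors differed, Foxa3 and Gata6 higher in batch 2 and Hnf4a and Sox9 lower, against 19.3% higher and 18.1% lower over all genes. With each library's trend with exon length removed, 3 factors were called between the batches, with Gata6 at 0.94 (adjusted p = 2.45e-05), Foxa3 at 0.81 (adjusted p = 0.00951), Sox9 at -0.49 (adjusted p = 0.11) and Hnf4a at -0.43 (adjusted p = 0.0858), and Gata6 alone between the lines, at 1.03 (adjusted p = 2.14e-05). The median log2 fold change over the 8 factors was 0.17 from 2D cells to day 7, 0.45 from day 7 to day 13, 0.67 from 2D cells to day 13, -0.36 for Matrigel against collagen, 0.07 for KPC against KC and -0.10 for batch 2 against batch 1. Over all tested genes the medians lay between -0.05 and 0.01. In bulk RNA, fewer cells that express a factor and less of its RNA per cell cannot be told apart.

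**Figure D1:**
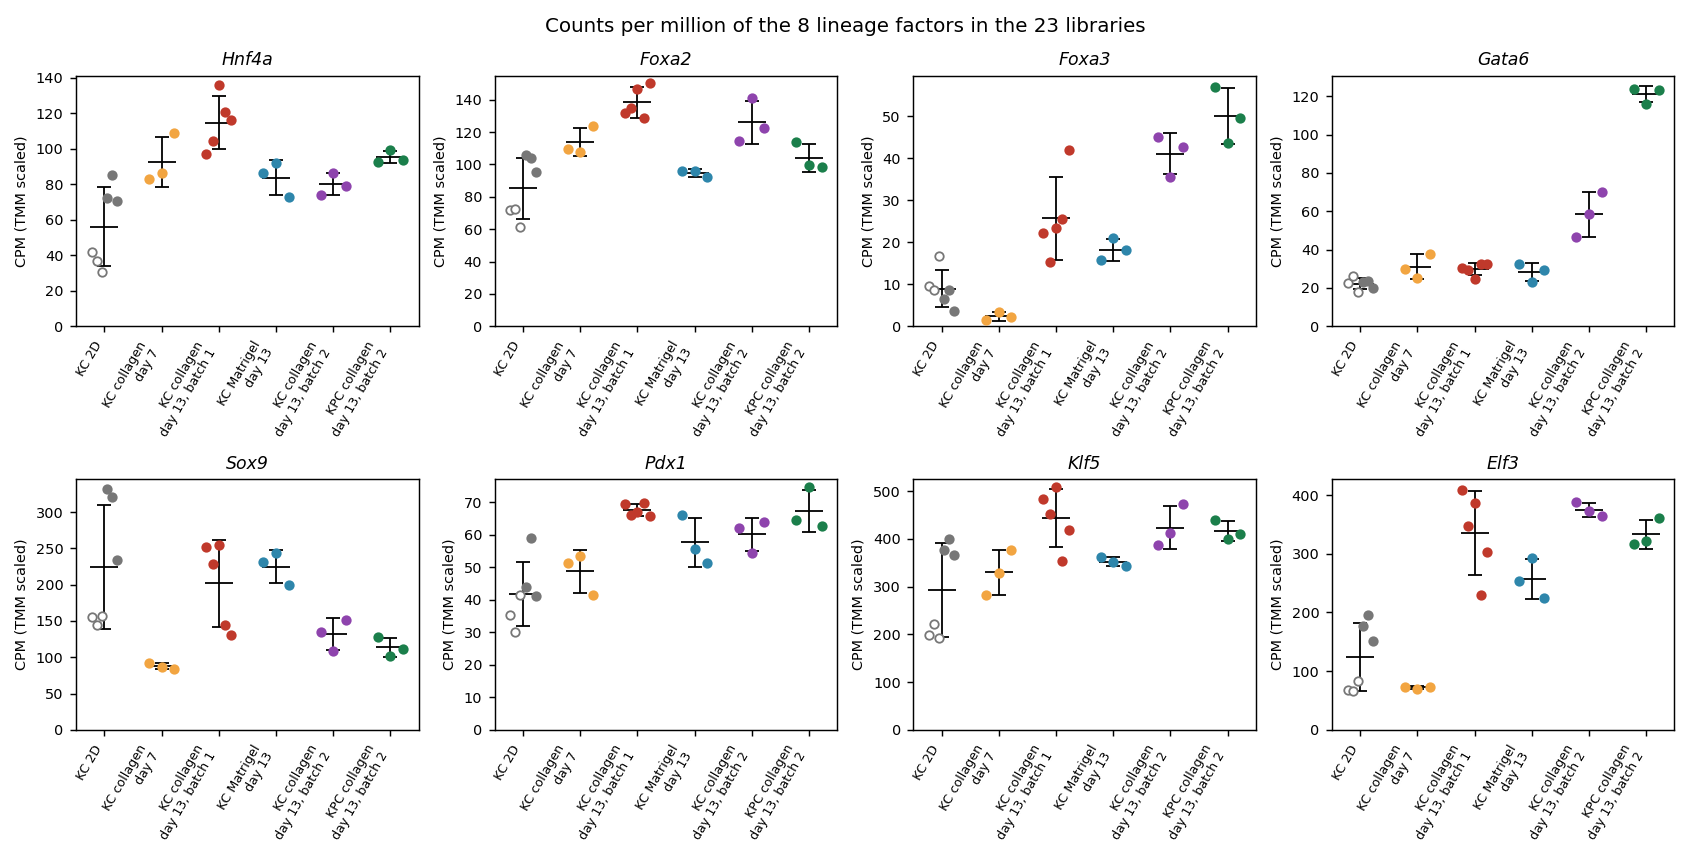
Level of each factor (y axis, CPM with TMM factors) in the 23 libraries by group (x axis), 1 point per library, with the group mean and SD in black. Open points are 2D replicates 1 to 3, which lie below the other 2D libraries in Hnf4a, Foxa2, Sox9, Klf5 and Elf3. Gata6 reaches 116 to 124 CPM in KPC organoids alone, and Foxa3, Sox9 and Elf3 are at their lowest group mean at day 7.

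**Figure D2:**
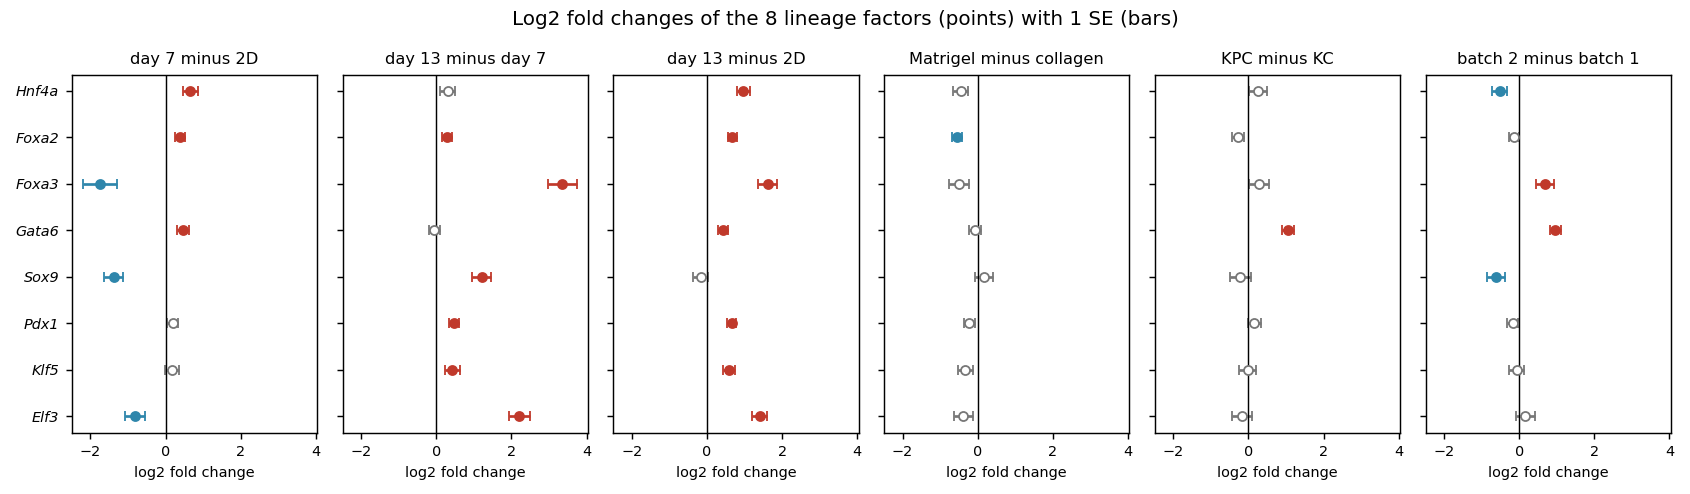
Log2 fold change of each factor (points) with 1 standard error (bars) from the edgeR fit, in 6 comparisons. Red points were called higher, blue points lower (adjusted p under 0.1), and open points were not called. Foxa3, Sox9 and Elf3 lie left of 0 from 2D cells to day 7 and right of it from day 7 to day 13.

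Foxa3 (chromosome 7 from 19013284 to 19023538) encodes a forkhead factor of liver and gut endoderm. In 2D cells it measured 3.53 CPM at the lowest, 8.69 at the median and 16.8 at the highest. At day 7 its 3 libraries held 1.47, 3.49 and 2.13 CPM, which rested on 3, 9 and 5 UMIs. At day 13 of batch 1 its levels were 22.2, 15.3, 23.4, 25.5 and 42.03 CPM. All day 7 libraries lay below all 2D libraries and below all day 13 libraries, and the ranges of 2D cells and day 13 overlapped. The gap to 2D cells was narrow, since the highest day 7 library rested on 9 UMIs and the lowest 2D library on 6. The fall from 2D cells to day 7 was -1.74 ± 0.45 (SE), adjusted p = 0.00301, and the rise from day 7 to day 13 was 3.36 ± 0.38 (SE), adjusted p = 6.52e-08, 10.3-fold. The fall was -1.38 (adjusted p = 0.021) without 2D replicates 1 to 3, and the rise was 3.01 (adjusted p = 7.47e-07) without day 13 replicates 4 and 5. Foxa3 rose from 2D cells to day 13 by 1.61 ± 0.26 (SE), adjusted p = 2.81e-05. The rise was 2.03 (adjusted p = 7.2e-07) with 2D replicates 4 to 6 alone and 1.09 (adjusted p = 0.00306) with replicates 1 to 3 alone. Matrigel organoids held 15.7, 20.9 and 18.1 CPM, within the collagen range. The difference, -0.49 ± 0.26 (SE), adjusted p = 0.293, was not called. In batch 2 the levels were 45.03, 35.6 and 42.6 CPM in KC and 56.9, 43.7 and 49.6 CPM in KPC organoids, and the ranges overlapped. The difference between the lines was 0.28 ± 0.26 (SE), adjusted p = 0.544, and against the 8 KC libraries of both batches it was 0.69 (adjusted p = 0.0642). Batch 2 was higher than batch 1 by 0.68 ± 0.24 (SE), adjusted p = 0.0361, and the call was lost when KC replicate 1 or replicate 3 of batch 2 was left out (adjusted p = 0.114 and 0.11).

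Foxa2 (chromosome 2 from 148042877 to 148046969), the forkhead factor that opens endodermal enhancers, was measured at 61.1 CPM or more in every library. In 2D cells it measured 61.1 CPM at the lowest, 84.1 at the median and 106 at the highest. Day 7 organoids held 109.8, 108 and 124 CPM. Day 13 organoids of batch 1 held 132, 135, 147, 128 and 150.3 CPM. The 3 groups followed each other upward without overlap between neighbours. Foxa2 rose from 2D cells to day 7 by 0.39 ± 0.13 (SE), adjusted p = 0.0196, but with 2D replicates 4 to 6 alone the value was 0.14 (adjusted p = 0.326). The rise from day 7 to day 13, 0.28 ± 0.14 (SE), adjusted p = 0.0901, lost its call without any one of 4 libraries (day 7 replicates 1 and 2, day 13 replicates 3 and 5), with adjusted p-values from 0.119 to 0.21. Over the whole span from 2D cells to day 13 the rise was 0.67 ± 0.12 (SE), adjusted p = 5.5e-05, and with 2D replicates 4 to 6 alone it was 0.47 (adjusted p = 0.000196). Matrigel organoids held 96, 95.9 and 92.1 CPM, all below the 5 collagen libraries. Foxa2 was the one factor called between the matrices, lower in Matrigel, at -0.55 ± 0.14 (SE), adjusted p = 0.0113, 1.46-fold. It was called in each of the 8 fits that left out 1 library of this comparison, with values from -0.57 to -0.50, but not where libraries were scaled by their size only, where the value was -0.48 (adjusted p = 0.203). Cd68 moved with this comparison, at 29.9 to 36.2 CPM in Matrigel and 11.6 to 21.5 in collagen, while Ptprc, which marks white blood cells, had group means of 0.52 and 0.28 CPM. The part of Cd68 in the result was not tested. In batch 2, KC organoids held 115, 141 and 123 CPM and KPC organoids 114, 99.95 and 98.2 CPM. Every KPC library lay below every KC library of the batch, but the difference, -0.28 ± 0.16 (SE), adjusted p = 0.268, was not called, and against the 8 KC libraries of both batches it was -0.36 (adjusted p = 0.0682). Between the batches the values were -0.14 ± 0.14 (SE), adjusted p = 0.491.

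Hnf4a (chromosome 2 from 163506808 to 163572910) encodes a nuclear receptor that controls lipid and transport genes of hepatocytes and enterocytes. In 2D cells it measured 30.6 CPM at the lowest, 56.3 at the median and 84.98 at the highest, of which the lower 3 were replicates 1 to 3. Day 7 organoids held 82.9, 86.4 and 109 CPM and day 13 organoids 96.9, 104, 136, 120.5 and 116 CPM. The 2D and day 7 ranges overlapped and the 2D and day 13 ranges did not. Hnf4a rose from 2D cells to day 7 by 0.66 ± 0.20 (SE), adjusted p = 0.0095, but against 2D replicates 4 to 6 alone the difference was 0.26 (adjusted p = 0.11). It differed between day 7 and day 13 by 0.31 ± 0.20 (SE), adjusted p = 0.213, which was not called. The rise from 2D cells to day 13 was 0.97 ± 0.17 (SE), adjusted p = 9.16e-05, 1.96-fold, and 0.62 (adjusted p = 7.2e-05) with 2D replicates 4 to 6 alone. Matrigel organoids held 86.6, 91.99 and 72.8 CPM, all 3 below the 5 collagen libraries. That difference, -0.45 ± 0.20 (SE), adjusted p = 0.19, was not called, and its interval was -0.87 to -0.03 at 95%. In a fit of the compared groups alone it was called, -0.42 (adjusted p = 0.0298). In batch 2, KC organoids held 74.2, 86.5 and 79.3 CPM and KPC organoids 92.6, 99.3 and 93.96 CPM. The KPC libraries lay above the KC libraries without overlap, by 0.25 ± 0.23 (SE), adjusted p = 0.538, not called, and against the 8 KC libraries of both batches the sign turned, -0.10 (adjusted p = 0.8). Hnf4a was lower in batch 2 than in batch 1, at -0.52 ± 0.21 (SE), adjusted p = 0.0617, and leaving out any one of 5 libraries (batch 1 replicates 3 and 5, each of batch 2) ended this call, with adjusted p-values up to 0.207. Its antisense gene Hnf4aos overlaps it, the strand setting of the counting is not given in the sources used here, and Hnf4aos held at most 1 UMI in any library.

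Gata6 (chromosome 18 from 11052064 to 11085635), a zinc finger factor of endoderm and of the classical type of PDAC, was the one factor called both between the lines and between the batches. Its 2D levels were 17.7 CPM at the lowest, 22.9 at the median and 26.2 at the highest. Organoids held 29.9, 25.2 and 37.9 CPM at day 7 and 30.1, 29.2, 24.9, 32.7 and 32.6 CPM at day 13 of batch 1. Matrigel organoids held 32.7, 23.1 and 29.1 CPM. These 4 groups overlapped with their neighbours in the order of means. Batch 2 KC organoids held 46.4, 58.6 and 69.97 CPM and KPC organoids 124, 116 and 123 CPM, so that KC of batch 2 lay above the 4 groups of batch 1 and KPC above both. Gata6 was 2.07-fold higher in KPC than in KC organoids of the same batch, 1.05 ± 0.16 (SE), adjusted p = 3.19e-05. The call held in the 6 fits that left out 1 of these libraries (0.91 to 1.20). It was also 1.95-fold higher in batch 2 than in batch 1 in KC organoids, 0.96 ± 0.15 (SE), adjusted p = 2.77e-05, with values from 0.81 to 1.14 over 8 such fits. Whether the line difference is the same size in batch 1 could not be seen, since KPC organoids were sequenced in batch 2 alone. Cd68 was lower in KPC than in KC organoids (-1.31 ± 0.37, adjusted p = 0.0158), while Ptprc had group means of 0.60 and 1.14 CPM. The part of Cd68 in the line difference was not tested. Gata6 rose from 2D cells to day 7 by 0.47 ± 0.16 (SE), adjusted p = 0.0195, a call that ended without day 7 replicate 3 (0.32, adjusted p = 0.176). Its rise from 2D cells to day 13 was 0.42 ± 0.14 (SE), adjusted p = 0.0196, and without day 13 replicates 4 and 5 it was 0.33 (adjusted p = 0.129). With 2D replicates 4 to 6 alone the steps were 0.44 (adjusted p = 0.0544) to day 7 and 0.45 (adjusted p = 0.0396) to day 13. Between day 7 and day 13 the difference was -0.05 ± 0.15 (SE), adjusted p = 0.815 (95% interval -0.37 to 0.27), and between Matrigel and collagen -0.08 ± 0.16 (SE), adjusted p = 0.855 (95% interval -0.40 to 0.25).

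Pdx1 (chromosome 5 from 147269959 to 147275848), the homeobox factor of the pancreatic bud, was present in all 23 libraries at 30.1 CPM or more. The 2D levels were 30.1 CPM at the lowest, 41.3 at the median and 59.05 at the highest. Organoids held 51.5, 53.5 and 41.4 CPM at day 7 and 69.5, 66.2, 67, 69.9 and 65.7 CPM at day 13 of batch 1. The 5 day 13 libraries lay between 65.7 and 69.9 CPM, above all day 7 and 2D libraries. Pdx1 rose from day 7 to day 13 by 0.47 ± 0.14 (SE), adjusted p = 0.00898, 1.39-fold. Against 2D cells, day 13 organoids were higher by 0.66 ± 0.12 (SE), adjusted p = 0.000177, and by 0.52 (adjusted p = 0.0017) against 2D replicates 4 to 6 alone. Between 2D cells and day 7 the difference was 0.19 ± 0.15 (SE), adjusted p = 0.315, not called, and its sign turned without 2D replicates 1 to 3 (-0.008, adjusted p = 0.974). Without 2D replicate 5 it was 0.33 and called (adjusted p = 0.045). Matrigel organoids held 66.1, 55.8 and 51.3 CPM, and the difference from collagen, -0.22 ± 0.14 (SE), adjusted p = 0.405, was not called. Batch 2 held 62.2, 54.4 and 63.97 CPM in KC and 64.5, 74.8 and 62.8 CPM in KPC organoids, whose ranges overlapped. The difference between the lines was 0.16 ± 0.17 (SE), adjusted p = 0.592 (95% interval -0.18 to 0.50). Between the batches it was -0.17 ± 0.15 (SE), adjusted p = 0.42, although every batch 2 library of KC lay below every batch 1 library.

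Sox9 (chromosome 11 from 112782224 to 112787760), the factor that keeps ductal and progenitor identity, had its lowest group mean at day 7. In 2D cells it measured 144 CPM at the lowest, 196 at the median and 332 at the highest. Day 7 organoids held 92.2, 86.4 and 83.98 CPM. Day 13 organoids of batch 1 held 252, 228, 255, 144 and 130.3 CPM, with replicates 4 and 5 below replicates 1 to 3. All day 7 libraries lay below every library of the other 5 groups. The fall of Sox9 from 2D cells to day 7 was -1.38 ± 0.25 (SE), adjusted p = 0.000121, 2.6-fold. The value was -1.79 (adjusted p = 5.52e-10) against 2D replicates 4 to 6 alone and -0.81 (adjusted p = 0.000462) against 2D replicates 1 to 3 alone. It rose from day 7 to day 13 by 1.21 ± 0.26 (SE), adjusted p = 0.000363, 2.31-fold. Between 2D cells and day 13 the difference was -0.17 ± 0.20 (SE), adjusted p = 0.528, and the direction depended on the 2D libraries. It was -0.53 (adjusted p = 0.00548) with 2D replicates 4 to 6 alone and 0.39 (adjusted p = 0.0457) with 2D replicates 1 to 3 alone. Matrigel organoids held 231, 244 and 199 CPM, within the collagen range, and the difference was 0.16 ± 0.24 (SE), adjusted p = 0.797 (95% interval -0.34 to 0.65). In batch 2, KC organoids held 134, 109 and 152 CPM and KPC organoids 128, 102 and 111 CPM. The ranges overlapped and the difference was -0.21 ± 0.28 (SE), adjusted p = 0.699. Sox9 was lower in batch 2 than in batch 1, at -0.62 ± 0.25 (SE), adjusted p = 0.0667. Without batch 1 replicates 4 and 5 the difference was -0.84 (adjusted p = 0.00976), and leaving out any one of 5 libraries (batch 1 replicates 1, 2 and 3, batch 2 replicates 1 and 2) ended the call, with adjusted p-values up to 0.254.

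Elf3 (chromosome 1 from 135253575 to 135258568) encodes an ETS factor of simple and secretory epithelia and, as Foxa3 did, fell from 2D cells to day 7 and rose to day 13. In 2D cells it measured 66.9 CPM at the lowest, 117 at the median and 196 at the highest. Day 7 organoids held 73.5, 70.1 and 73.3 CPM. Day 13 organoids of batch 1 held 409, 347, 387, 229 and 303 CPM. Every day 13 library lay above every 2D and day 7 library, while day 7 overlapped the 2D replicates 1 to 3, which held 66.9 to 82.8 CPM. From day 7 to day 13 Elf3 rose by 2.21 ± 0.28 (SE), adjusted p = 3.25e-07, 4.63-fold. Its fall from 2D cells to day 7 was -0.81 ± 0.26 (SE), adjusted p = 0.0142. The fall was -1.30 (adjusted p = 1.17e-08) against 2D replicates 4 to 6 alone and -0.01 (adjusted p = 0.956) against 2D replicates 1 to 3 alone. Over the span from 2D cells to day 13 the rise was 1.40 ± 0.21 (SE), adjusted p = 1e-05, and 0.96 (adjusted p = 1.59e-07) with 2D replicates 4 to 6 alone. Matrigel organoids held 253, 292 and 224 CPM, which overlapped collagen, at -0.38 ± 0.25 (SE), adjusted p = 0.411. Batch 2 held 387, 374 and 364 CPM in KC and 316, 322 and 361 CPM in KPC organoids, the KPC libraries all below the KC libraries. That difference was -0.17 ± 0.28 (SE), adjusted p = 0.758, not called, and between the batches it was 0.16 ± 0.24 (SE), adjusted p = 0.658.

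Klf5 (chromosome 14 from 99298691 to 99315036), a zinc finger factor of proliferating and glandular epithelia, was not called between the matrices, the lines or the batches. In 2D cells it measured 192 CPM at the lowest, 294 at the median and 399.9 at the highest, with replicates 1 to 3 at 192 to 221 CPM and replicates 4 to 6 at 367 to 399.9 CPM. Day 7 organoids held 283, 329 and 378 CPM. Day 13 organoids of batch 1 held 484, 451, 509, 354 and 418 CPM. Day 7 lay above 2D replicates 1 to 3 and overlapped the other 2D libraries as well as day 13. Klf5 rose from 2D cells to day 13 by 0.58 ± 0.16 (SE), adjusted p = 0.00513, and by 0.24 (adjusted p = 0.0531) with 2D replicates 4 to 6 alone. The rise from day 7 to day 13, 0.42 ± 0.20 (SE), adjusted p = 0.077, lost its call without any one of 4 libraries (day 7 replicates 1 and 2, day 13 replicates 1 and 3), with adjusted p-values up to 0.225. At day 7 the difference from 2D cells was 0.16 ± 0.19 (SE), adjusted p = 0.512. It was -0.23 (adjusted p = 0.0915) with 2D replicates 4 to 6 alone and 0.69 (adjusted p = 1.37e-05) with replicates 1 to 3 alone, so that the direction depended on the 2D libraries. Matrigel organoids held 362, 351 and 343 CPM, at -0.33 ± 0.20 (SE), adjusted p = 0.353 against collagen. Batch 2 held 387, 411 and 473 CPM in KC and 440.1, 399.8 and 409.6 CPM in KPC organoids. The difference between the lines was -0.03 ± 0.22 (SE), adjusted p = 0.962 (95% interval -0.47 to 0.42) and between the batches -0.06 ± 0.20 (SE), adjusted p = 0.841 (95% interval -0.47 to 0.34).

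In the order of group means, most neighbours overlapped. Hnf4a, Foxa2, Pdx1 and Klf5 had the highest mean in collagen at day 13 of batch 1 and the lowest in 2D cells, and every pair of neighbouring groups overlapped for Hnf4a and Pdx1. Gata6 and Foxa3 had the highest mean in KPC organoids. Elf3 had it in KC organoids of batch 2, at 375 ± 11.8 CPM (SD), and Sox9 in Matrigel, at 225 ± 23.1 CPM, close to 2D cells at 224 ± 85.8 CPM. A gap between neighbours was seen for Foxa2 and Klf5 between KPC and Matrigel organoids and for Foxa3 between 2D cells and day 7. Others were seen for Gata6 above and below KC organoids of batch 2, for Sox9 between KPC organoids and day 7, and for Elf3 on both sides of Matrigel. The Foxa3 gap was narrow, with 3.49 CPM at day 7 (9 UMIs) against 3.53 CPM in 2D cells (6 UMIs). The share of all tested genes without overlap between groups was not computed.

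Relatives of the 8 factors were followed to see whether a factor moved with its family. Of 15 relatives 13 were in the table and 11 were tested. From day 7 to day 13, 7 of the 11 rose and 2 fell, against 27.1% and 28.1% of all tested genes, with a median log2 fold change of 0.77 against -0.01 for all tested genes. Hnf4g, the second HNF4 receptor and a gut factor, rose from 1.05 ± 0.805 CPM to 15.99 ± 2.84 CPM (SD), 3.90 ± 0.45, adjusted p = 9.25e-08. However, its day 7 level rested on 1 to 4 UMIs per library, where a count of 0 was taken to allow up to 3. The size of the rise is therefore uncertain. Ehf, the closest ETS relative of Elf3, rose from 6.68 ± 3.64 CPM to 47.6 ± 9.56 CPM, 2.86 ± 0.31, adjusted p = 3.96e-08, and Klf6, an early response factor, fell by 0.48 ± 0.14, adjusted p = 0.00694. Between 2D cells and day 7 Ehf had fallen (-2.48 ± 0.32, adjusted p = 1.19e-06), as Elf3 had, while Klf6 rose by 1.07 ± 0.14, adjusted p = 1.21e-06 and Klf4 by 0.63 ± 0.14, adjusted p = 0.000778. In all, 2 relatives rose and 2 fell in that step (against 24.8% and 26.4% of all tested genes), with a median of 0.02, and with 2D replicates 4 to 6 alone 2 rose and 4 fell, with a median of -0.17. By day 13, 7 relatives were above and 1 below 2D cells (against 23.3% and 26.3% of all tested genes), and as many with 2D replicates 4 to 6 alone (medians 0.59 and 0.30), led by Hnf4g (2.01 ± 0.30, adjusted p = 1.03e-05) and by Klf4, a factor of differentiating epithelia, which went from 152 ± 15.3 CPM to 534 ± 101 CPM (1.81 ± 0.12, adjusted p = 3.98e-11).

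The same families were followed in Matrigel, in KPC organoids and between the batches. In Matrigel, where Foxa2 was lower and Foxa3 was not called, Foxa1 was higher at 10.5 ± 2.20 CPM against 4.85 ± 0.989 CPM in collagen, 1.11 ± 0.24, adjusted p = 0.00311. Klf4 was lower at -1.35 ± 0.15, adjusted p = 5.54e-07 and Gata4, a partner of Gata6 in foregut, at -0.64 ± 0.22, adjusted p = 0.0721, while Ehf was higher by 0.63 ± 0.22, adjusted p = 0.0769. In total 2 relatives were higher and 3 lower in Matrigel (against 6.62% and 6.29% of all tested genes), with a median of -0.23. In KPC organoids 1 relative was higher and 8 were lower (against 9.58% and 10.4% of all tested genes), with a median of -0.70. Foxa1 was higher by 1.82 ± 0.29, adjusted p = 7.08e-05, Gata4 was lower at 15.5 ± 3.22 CPM against 52.7 ± 10.8 CPM in KC, -1.75 ± 0.30, adjusted p = 0.000186, and Hnf4g was lower at -1.28 ± 0.31, adjusted p = 0.00511. Gata6 and Gata4 thus differed between the lines in opposite directions. Between the batches 6 relatives were higher in batch 2 and 1 was lower (against 19.3% and 18.1% of all tested genes), with a median of 0.44. Klf3 was higher by 1.38 ± 0.12, adjusted p = 1.2e-08 and Klf6 by 1.27 ± 0.14, adjusted p = 2.93e-07, and Gata4 was lower at -0.66 ± 0.23, adjusted p = 0.0294. Whether a member differed from its relatives was not tested.

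**Figure D3:**
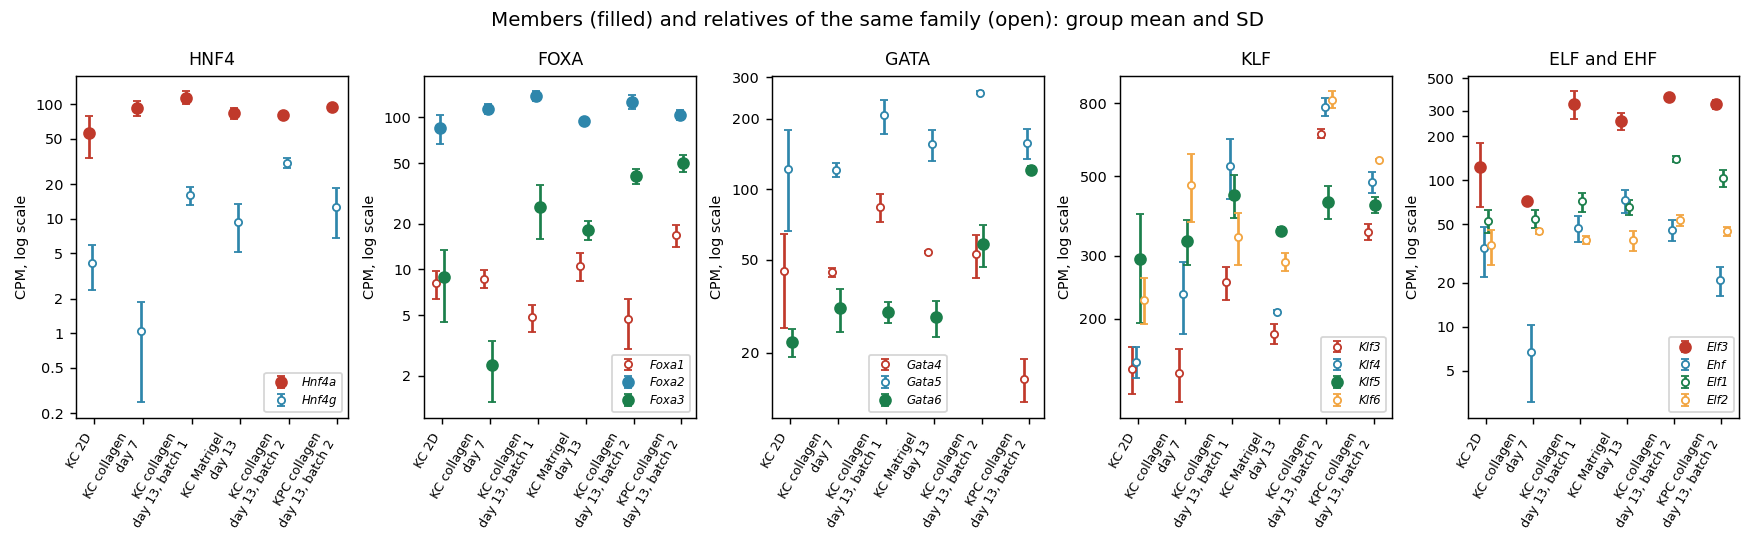
Group means (points) and SD (bars) in CPM on a log scale for members (filled) and relatives of the same family (open) in the 6 groups. Heights of different genes are not to be compared here. Hnf4g, Ehf and Foxa3 dip at day 7, and Gata6 rises and Gata4 falls from KC to KPC organoids of batch 2.

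A list of 16 other endodermal, pancreatic progenitor and ductal factors was compiled for comparison, and 12 were tested. From 2D cells to day 7, 1 rose and 6 fell (against 24.8% and 26.4% of all tested genes), with a median of -0.34, and with 2D replicates 4 to 6 alone 1 rose and 8 fell, with a median of -0.45. Sox17, a factor of endoderm and bile duct, fell from 105 ± 54.4 CPM to 27.6 ± 2.10 CPM (-1.98 ± 0.30, adjusted p = 1.42e-05, and -2.50, adjusted p = 3.2e-15 with 2D replicates 4 to 6 alone) and Hhex, a foregut homeobox factor, at -1.76 ± 0.16, adjusted p = 8.97e-09, while Rbpj, which relays Notch signals, rose by 0.45 ± 0.15, adjusted p = 0.0213. From day 7 to day 13, 8 rose and 2 fell (against 27.1% and 28.1% of all tested genes), with a median of 0.85. Sox17 (2.19 ± 0.31, adjusted p = 2.01e-06) and Hhex (1.28 ± 0.17, adjusted p = 6.44e-07) rose again, as Sox9 did, and Rbpj (-0.82 ± 0.16, adjusted p = 0.000112) and Sox4 (-0.41 ± 0.13, adjusted p = 0.012) fell. Between 2D cells and day 13, 4 rose and 3 fell (median 0.17, against 23.3% and 26.3% of all tested genes), and 3 rose and 4 fell with 2D replicates 4 to 6 alone (median 0.02), with Onecut2, a cut homeobox factor, at 0.97 ± 0.12, adjusted p = 1.04e-06, Tcf7l2, which relays Wnt signals, at 0.81 ± 0.15, adjusted p = 0.000198, Sox4 at -0.93 ± 0.11, adjusted p = 5e-07 and Hhex at -0.48 ± 0.12, adjusted p = 0.00322. In Matrigel, Sox4, a progenitor factor, was higher by 1.37 ± 0.13, adjusted p = 4.14e-08 and Hhex by 0.40 ± 0.14, adjusted p = 0.0837. The only other listed factor called there was lower. In KPC organoids Sox4 was higher by 0.94 ± 0.15, adjusted p = 7.72e-05, and Sox17 (-1.88 ± 0.34, adjusted p = 0.0003) and Glis3 (-1.06 ± 0.34, adjusted p = 0.0355), a factor of islet and duct development, were lower. Between the batches 3 were higher, led by Tcf7l2 (0.51 ± 0.17, adjusted p = 0.0295) and Onecut2 (0.50 ± 0.14, adjusted p = 0.00826), and 2 were lower, among them Nr2f6 (-0.50 ± 0.11, adjusted p = 0.00126). The counts called higher and lower stood against 6.62% and 6.29% of all tested genes in Matrigel, against 9.58% and 10.4% of all tested genes in KPC and against 19.3% and 18.1% of all tested genes in batch 2. The list medians were 0.19 in Matrigel, -0.17 in KPC and 0.07 in batch 2.

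Factors of other lineages were measured beside the members. Of 5 factors listed as acinar 4 were in the table and 1, Nr0b2, was tested, which does not describe the acinar lineage as a whole. It is named after its values were seen, and it was lower at day 7 and at day 13 than in 2D cells (-2.09 ± 0.42, adjusted p = 0.000336, and -1.42 ± 0.33, adjusted p = 0.00139). Nr0b2 rested on 3 to 24 UMIs per library in 2D cells, 2 to 6 at day 7 and 2 to 11 at day 13, so that these sizes are uncertain. Of 12 endocrine factors 6 were in the table and none had counts enough to be tested, the highest group mean being 3.77 CPM for Rfx6 in collagen at day 13. Of 5 intestinal and foregut factors 3 were tested. Cdx2, the homeobox factor of intestine, rose from 29.2 ± 7.94 CPM in 2D cells to 64.5 ± 10.3 CPM at day 7 (1.08 ± 0.18, adjusted p = 4.11e-05) and was above 2D cells at day 13 (0.99 ± 0.16, adjusted p = 3.28e-05). It was lower in Matrigel than in collagen (-0.63 ± 0.19, adjusted p = 0.0339), higher in KPC than in KC organoids (1.002 ± 0.23, adjusted p = 0.00286) and lower in batch 2 than in batch 1 (-1.02 ± 0.20, adjusted p = 0.000434). Isx, an intestinal homeobox factor, rose from day 7 to day 13 (4.05 ± 0.46, adjusted p = 6.84e-08, from 1 to 4 UMIs per library at day 7, so that the size is uncertain), was above 2D cells at day 13 (1.73 ± 0.29, adjusted p = 4.28e-05) and was lower in batch 2 (-2.21 ± 0.40, adjusted p = 0.000126).

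Genes of hepatocytes and enterocytes, known targets of HNF4A among them, rose and fell with the culture stage. Of 18 such genes 13 were in the table and 8 were tested. From 2D cells to day 7, 2 rose and 5 fell, against 24.8% and 26.4% of all tested genes, with a median of -1.38, and with 2D replicates 4 to 6 alone the counts were as many and the median was -1.44. Hnf4a itself rose in this step with all 2D libraries but was not called with replicates 4 to 6 alone (0.26 (adjusted p = 0.11)). Fabp1, a fatty acid carrier, fell from 34.4 ± 11.03 CPM to 5.82 ± 1.38 CPM (-2.62 ± 0.25, adjusted p = 1.52e-08) and Ttr, a carrier of thyroid hormone, fell by 2.02 ± 0.37, adjusted p = 0.000106. Apob, the core protein of lipoproteins, rose by 1.20 ± 0.26, adjusted p = 0.000517 and Cdhr2, a cadherin of the brush border, by 0.76 ± 0.34, adjusted p = 0.0711. From day 7 to day 13, 7 of the 8 rose and none fell, against 27.1% and 28.1% of all tested genes, with a median of 2.56 against -0.01 for all tested genes. Cdhr5, the partner of Cdhr2, rose from 1.98 ± 0.717 CPM to 34.1 ± 4.41 CPM (4.05 ± 0.37, adjusted p = 2.65e-09) and Myo1a, the brush border myosin, by 3.92 ± 0.32, adjusted p = 3.78e-10, from day 7 levels that rested on 3 to 7 and 3 to 10 UMIs per library. Hnf4a was not called in that step. By day 13, 7 of the 8 were above 2D cells and none below (median 1.68, against 23.3% and 26.3% of all tested genes), and as many with 2D replicates 4 to 6 alone (median 1.74), led by Cdhr5 (2.67 ± 0.27, adjusted p = 2.75e-08) and Myo1a (2.54 ± 0.23, adjusted p = 5.98e-09). In Matrigel 3 of the 8 were lower and none higher (median -0.50, against 6.62% and 6.29% of all tested genes higher and lower), with Fabp2, the intestinal fatty acid carrier, at -1.84 ± 0.32, adjusted p = 0.00031 and Fabp1 at -1.66 ± 0.21, adjusted p = 3.09e-06. In KPC organoids 3 were higher and 3 lower (median -0.06, against 9.58% and 10.4% of all tested genes). Fabp2 (2.02 ± 0.28, adjusted p = 1.09e-05) and Ttr (1.53 ± 0.29, adjusted p = 0.000522) were higher and Apob (-1.99 ± 0.31, adjusted p = 6.54e-05) and Fabp1 (-1.20 ± 0.31, adjusted p = 0.00836) lower, while Hnf4a was not called between the lines. Between the batches Fabp1 alone was called, lower in batch 2 at -1.54 ± 0.22, adjusted p = 7.22e-06, with a list median of -0.07 (against 19.3% and 18.1% of all tested genes higher and lower). The genes named from these lists kept their call and direction with 2D replicates 4 to 6 alone.

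**Figure D4:**
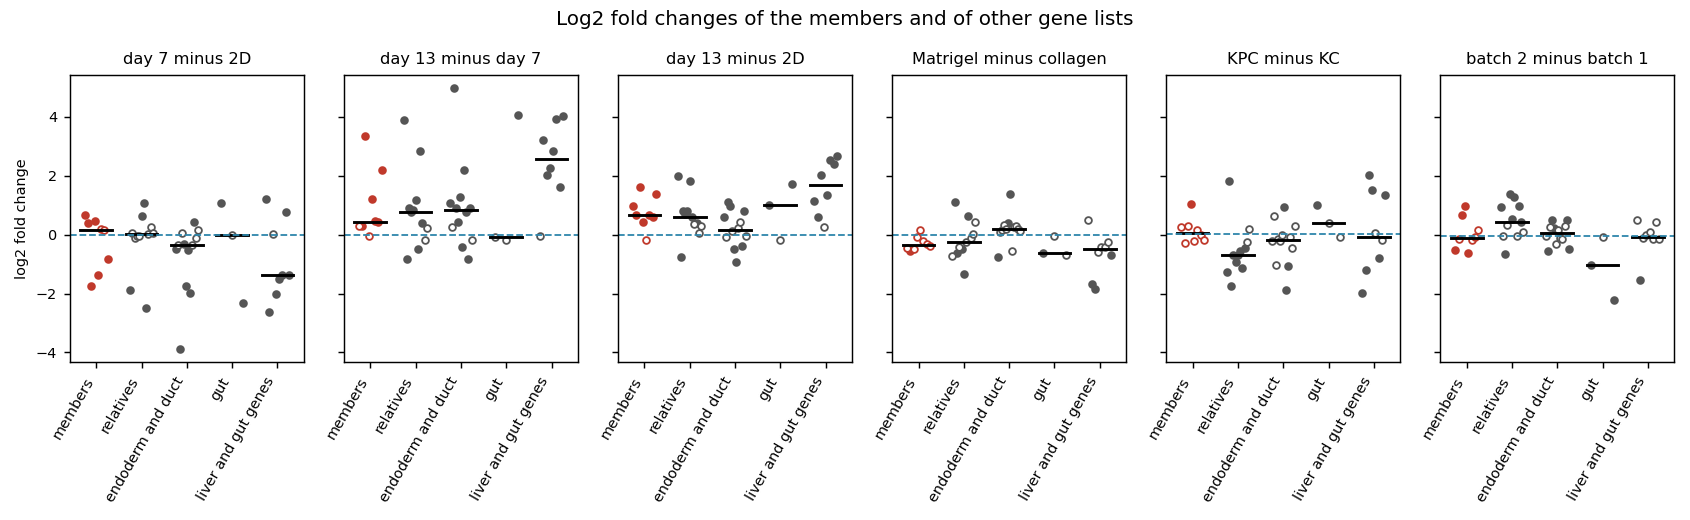
Log2 fold change of each tested gene (points, filled where called) of the 8 factors (red) and of 4 other lists (grey), with each list's median (black bar) and the median of all tested genes (dashed line), in 6 comparisons. The genes of liver and intestine have medians of -1.38 from 2D cells to day 7 and 2.56 from day 7 to day 13, and the factors have medians of 0.17 and 0.45.

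The label of the cells was checked against markers. All 10 ductal markers of a list were detected in each group, with a summed level of 14290 CPM in the lowest and 25410 CPM in the highest library. The keratins Krt7, Krt8, Krt18 and Krt19 had group means from 1138 CPM (Krt7, collagen day 13) to 6129 CPM (Krt19, KC batch 2). From 2D cells to day 7, 4 of the 10 rose and 5 fell, against 24.8% and 26.4% of all tested genes. With 2D replicates 4 to 6 alone 3 rose and 6 fell, against 22.4% and 23.9% of all genes in that fit. From day 7 to day 13, 5 rose and 2 fell, against 27.1% and 28.1% of all tested genes. Epcam, an epithelial adhesion molecule, measured 20.3 ± 5.80 CPM (SD) in 2D cells, 5.87 ± 1.73 CPM at day 7, 56.2 ± 13.4 CPM at day 13 and 165 ± 15.1 CPM in Matrigel. Krt8 went the other way, 1.19 ± 0.16, adjusted p = 2.53e-06 to day 7 and -0.43 ± 0.17, adjusted p = 0.0375 from there to day 13. Of 7 acinar markers 2 were in the table, with Cpb1 at 0 in every library and Cela1 from 2.98 to 20.4 CPM, lowest at day 7 (2.98 to 3.43 CPM). The endocrine marker Ins1 was at 0 in all libraries, the endothelial markers summed to at most 2.67 CPM, and Kdr was at 0. The 6 fibroblast markers summed to 29.8 to 89.1 CPM in 2D cells, to 25.04 to 46.1 CPM in the other groups of batch 1 and to 13.2 to 23.3 CPM in batch 2, led by Col3a1 and Dcn. The fibroblast sum reached its highest value in 2D cells, where 7 of the 8 factors were lower than at day 13. It was lowest in batch 2, where Foxa3 and Gata6 were higher and Hnf4a and Sox9 lower than in batch 1 in KC organoids. From 2D cells to day 13, Dcn (0.06, adjusted p = 0.901) and Col3a1 (-0.01, adjusted p = 0.977) were not called with 2D replicates 4 to 6 alone. With 2D replicates 1 to 3 alone both were lower at day 13 (-1.19, adjusted p = 0.000234, and -1.04, adjusted p = 0.00093). The 4 immune markers in the table summed to 4.11 to 18.3 CPM in 2D cells, 3.41 to 5.88 CPM at day 7, 12.05 to 21.5 CPM at day 13 in collagen, 30.3 to 36.2 CPM in Matrigel, 18.7 to 21.2 CPM in KC and 5.39 to 11.6 CPM in KPC organoids of batch 2, most of it Cd68. Of the other immune markers, Lyz2 and Cd79a held at most 1 UMI in any library and Ptprc at most 3. The part of these markers in the results was not tested.

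For each factor, the genes with the most similar course were sought among 9775 tested genes with a mean of at least 10 CPM in at least 1 group, by Pearson correlation of log2 CPM over the 23 libraries. The libraries share groups and depth, the correlations describe these libraries only, and they were repeated without 2D replicates 1 to 3. For Foxa3 the nearest genes were Gsn (r = 0.96, and 0.97 over 20 libraries), Cbr1 (r = 0.95, and 0.96 over 20 libraries) and Fmo5 (r = 0.95, and 0.97 over 20 libraries). Gsn encodes the actin-severing protein gelsolin. For Elf3 they were Myo6 (r = 0.96, and 0.94 over 20 libraries), Arhgef16 (r = 0.96, and 0.94 over 20 libraries) and Mvp (r = 0.95, and 0.94 over 20 libraries), of which Myo6 encodes a myosin of the apical membrane. For Gata6 they were Psapl1 (r = 0.93, and 0.93 over 20 libraries), Plekha8 (r = 0.93, and 0.94 over 20 libraries) and Rabep1 (r = 0.93, and 0.93 over 20 libraries), and for Sox9 Fam57a (r = 0.93, and 0.94 over 20 libraries), Slc26a9 (r = 0.91, and 0.92 over 20 libraries) and Ctsa (r = 0.90, and 0.91 over 20 libraries). For these 4 factors the correlations were 0.90 or above in both sets. For Foxa2 they were Suox (r = 0.93, and 0.89 over 20 libraries), Capg (r = 0.90, and 0.82 over 20 libraries) and Cnnm4 (r = 0.90, and 0.77 over 20 libraries), and for Pdx1 Mark2 (r = 0.88, and 0.75 over 20 libraries), Arhgef16 (r = 0.86, and 0.77 over 20 libraries) and Adcy6 (r = 0.86, and 0.77 over 20 libraries). Arhgef16, an exchange factor for small GTPases, was thus near both Elf3 and Pdx1. For Klf5 they were Foxp1 (r = 0.89, and 0.66 over 20 libraries), Gata5 (r = 0.88, and 0.68 over 20 libraries) and Hadha (r = 0.88, and 0.77 over 20 libraries), where Gata5 is a relative of Gata6, and for Hnf4a Hk1 (r = 0.90, and 0.65 over 20 libraries), Brd2 (r = 0.89, and 0.62 over 20 libraries) and Esrp2 (r = 0.88, and 0.52 over 20 libraries). For Foxa2, Pdx1, Klf5 and Hnf4a each of the 3 correlations was lower without 2D replicates 1 to 3. Among the factors, Hnf4a and Foxa2 had the highest correlation over 23 libraries (r = 0.88, and 0.65 over 20), and Foxa3 and Elf3 had it over 20 libraries (r = 0.90, and 0.79 over 23). Sox9 correlated with none of the others at more than 0.30 over 23 libraries, and its lowest value was with Gata6 (r = -0.49).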

How the data were processed

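The deposited values are UMI counts of 27207 genes in 23 libraries, which the authors made from 3' RNA libraries with the Drop-seq pipeline on GRCm38 and GENCODE gene models, without normalization. The strand setting is not given in the sources used here. Groups follow the sample labels. Total counts ran from 1221451 to 2471058, and floors and intervals cover counting error or the spread between libraries only.

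Counts were fitted in R 4.3.3 with edgeR 4.0.16 (TMM, filterByExpr, 1 fit of 6 groups, quasi-likelihood F-test), and genes with a Benjamini-Hochberg adjusted p under 0.1, the study's threshold, over 11144 genes were called. Likeness was computed on log2 CPM (prior count 2). The pipeline was tested on simulated data. The members and lists were chosen with earlier results of these data known. Named beside the members were, for each list and comparison, at most 2 called genes per direction with the largest log2 fold change and 10 CPM or more in the higher group, the 3 nearest genes per member, and markers. Exon lengths and positions came from GENCODE on GRCm38, promoters from RefSeq. Listed genes outside the table were not analysed here, and some listed genes and alleles of the lines are not reported here. No pair of replicates agreed within sampling noise (chi-square per degree of freedom at least 1.27 over 37 pairs). In 2D cells the value was 1.27 to 2.90 within replicates 1 to 3 and within replicates 4 to 6. Between these sets it was 21.6 to 33.7. Alternatives were DESeq2 1.42.0, other scalings, no filter, a threshold of 0.05, the compared groups alone, all 8 KC collagen libraries of day 13, a replicate block and each library left out. Subsets of the 2D and day 13 libraries, for the lists too, and removal of a trend with exon length over 20 classes were added after seeing the data.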

Additional observations from a re-analysis of the deposited data

How the results depend on the processing

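Values are log2 fold changes or numbers of called factors, and the cause of a change was not tested unless fewer libraries were used. Of the factors' log2 fold changes under alternatives, 807 kept their direction and their side of the threshold, 44 lost a call, 13 gained one and 16 turned sign. Between Matrigel and collagen, where 1 factor was called, scaling by library size alone called 0, no filter on low counts 2 and a fit of the compared groups alone 3. Scaling by library size alone called 954 of all tested genes there against 1439, and leaving out Matrigel replicate 1 called 901. Between KPC and KC, where 1 factor was called, a fit of the compared groups alone called 2 and the 8 KC libraries of both batches 3. Between the batches, where 4 were called, a threshold of 0.05 called 2. Leaving out 1 library called from 5 to 7 factors from 2D cells to day 7, from 4 to 6 from day 7 to day 13, 7 from 2D cells to day 13, 1 in Matrigel and 1 in KPC. Between the batches it called from 1 (without KC replicate 1 of batch 2) to 4, and 2 without batch 1 replicate 3 or without replicate 2 or 3 of batch 2.

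Some signs turned. With 2D replicates 4 to 6 alone, Klf5 was -0.232 and Pdx1 -0.008 from 2D cells to day 7, and with replicates 1 to 3 alone Sox9 was 0.387 from 2D cells to day 13. Without day 13 replicates 4 and 5, Sox9 was 0.111 from 2D cells to day 13 and -0.097 in Matrigel, and Gata6 was 0.037 in Matrigel. With scaling by library size alone, Gata6 was 0.002 from day 7 to day 13 and Klf5 0.097 in KPC. With the 8 KC libraries, Gata6 was 0.364 from day 7 to day 13 and Hnf4a -0.099 in KPC. With 1 library left out, Gata6 ranged from -0.18 to 0.123 from day 7 to day 13 (positive without day 7 replicate 3 or day 13 replicate 3) and from -0.212 to 0.053 in Matrigel (positive without Matrigel replicate 2), and Klf5 ranged from -0.092 to 0.05 in KPC (positive without KC replicate 3) and from -0.144 to 0.034 in batch 2 (positive without its KC replicate 1).

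Deviations from the group mean of libraries with the same replicate number correlated at -0.119 to 0.188 over 47 pairs of libraries, and 2 of them were over 0.1. Such values cannot show whether these libraries shared an experiment, since group means rested on as few as 3 libraries. With the number as a block, 5 factors were called from 2D cells to day 7, 4 from day 7 to day 13 and 2 between the batches, where Klf5 turned to 0.035. The other 3 comparisons called as many factors as without it. Depth limits the size of changes to and from day 7, where Foxa3 rested on 3 to 9 UMIs per library and Hnf4g and Isx on 1 to 4. Nr0b2 rested on 2 to 6 there, Cdhr5 on 3 to 7 and Myo1a on 3 to 10. A difference that was not called is not shown to be absent.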

Other observations

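Serpina1b, which encodes a secreted protease inhibitor of liver and was listed among the genes of liver and intestine, did not pass the filter on low counts. It was at 0 in all 20 KC libraries and measured 0, 0.53 and 34.7 CPM in the KPC organoids, where 1 library held 58 UMIs. Its copies in the Serpina1 family are nearly identical, so that reads of one copy may have been counted under another. Prox1, a factor of pancreatic progenitors and bile duct that did not pass the filter either, was seen with at most 1 UMI in any KC library and with 1 to 7 UMIs in the KPC organoids. Both genes were chosen after their values were seen.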
